A study of Homo sapiens with 12 samples.

Results

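The 10 genes described here are markers used to recognise astrocytes: GFAP, SLC1A2, SLC1A3, GJA1, AQP4, S100B, ALDH1L1, GLUL, CLU and SPARCL1. They were chosen by name from a table of 31654 genes. All 10 had a row in the table, and 7 of them reached 1 FPKM in at least 3 of the 12 libraries and could be tested. FPKM is the number of sequenced fragments per kilobase of transcript, scaled to the total of its library, so it can be set side by side between genes of different length.

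RNA came from 4 cultures of human glioblastoma cells, with 3 libraries each. U251MG and U87MG are established parental lines. U251TR and U87TR are their resistant sublines, each obtained by exposing its parent again and again to rising concentrations of temozolomide, the alkylating drug given to patients with glioblastoma. All cells grew in DMEM with fetal bovine serum, each parent gave 1 resistant subline, and whether temozolomide was present at harvest is not given in the sources used here. Whether a line's 3 libraries are separate cultures is not stated. The p-values then rest on library-to-library spread alone, and that spread may be technical.

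Astrocytes are the glial cells that take up glutamate and potassium around synapses, pass ions and metabolites to one another through gap junctions, and contact blood vessels with end-feet. GFAP is the intermediate filament protein that distinguishes the mature and, above all, the reactive astrocyte, and its gene is a classical target of STAT3 downstream of the gp130 cytokines and of the NFI factors. In glioblastoma GFAP is the standard marker of astrocytic lineage, and long-passaged lines often hold little of it.

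Each comparison below was fitted with limma on log2(FPKM + 1) over all 15449 tested genes and 12 libraries, so every log2 fold change is on that scale, which understates the change of genes with low values. Tests were two-sided, p-values were adjusted by the Benjamini-Hochberg method over all tested genes, and a gene was called at an adjusted p under 0.05. The table holds no read counts, so the depth is unknown. Between 13135 and 14122 genes per library reached 1 FPKM. Library 2 of U251MG stood somewhat apart from the other 2 of its group, with rank correlations (Spearman, across genes) to them of 0.977 and 0.978, while those 2 reached 0.993 with each other, and it was the highest of its group for each of the 6 markers that averaged at least 1 FPKM there. The 3 U87TR libraries carry codes from another number block than the other 9. That block and resistance cannot be told apart in the U87 comparison, nor in the difference between the U87 and U251 changes.

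The 10 markers did not move as a block in either resistant line. In U251TR, GFAP, SPARCL1 and CLU rose while SLC1A3, GJA1 and S100B fell, and GLUL did not pass the test. In U87TR, SLC1A3 fell and GFAP and GLUL were called higher, all by less than 2-fold on the scale of the fit, and the other 4 tested markers did not pass. The GFAP and GLUL calls in U87TR were lost in 10 and 9 of 16 other settings. SLC1A3 was the marker that fell in both lines. The largest rises in U251TR were about 17.4-fold for GFAP and 106-fold for SPARCL1 as ratios of mean FPKM, a scale on which GFAP in U87TR was 2.32-fold its parent.

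Of the 7 tested markers, 3 were called higher and 3 lower in U251TR, where 33.6% of all tested genes were called higher and 19.6% lower. In U87TR, 2 were called higher and 1 lower, against 10.6% and 17.2% of all tested genes. The median log2 fold change of the 7 was -0.25 in U251TR and 0.16 in U87TR, beside medians over all tested genes of 0.10 and -0.05. Among all called genes, the share higher was 63.2% in U251TR and 38.1% in U87TR as deposited, and 50.9% and 45.2% under median-of-ratios scaling, while the 6 marker calls in U251TR kept their direction. With counts this small, the members' shares are given as a description. S100B passed the filter on low values through the U251 libraries alone and SPARCL1 through U251TR alone, so these genes had to differ somewhere in the design.

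**Figure D1:**
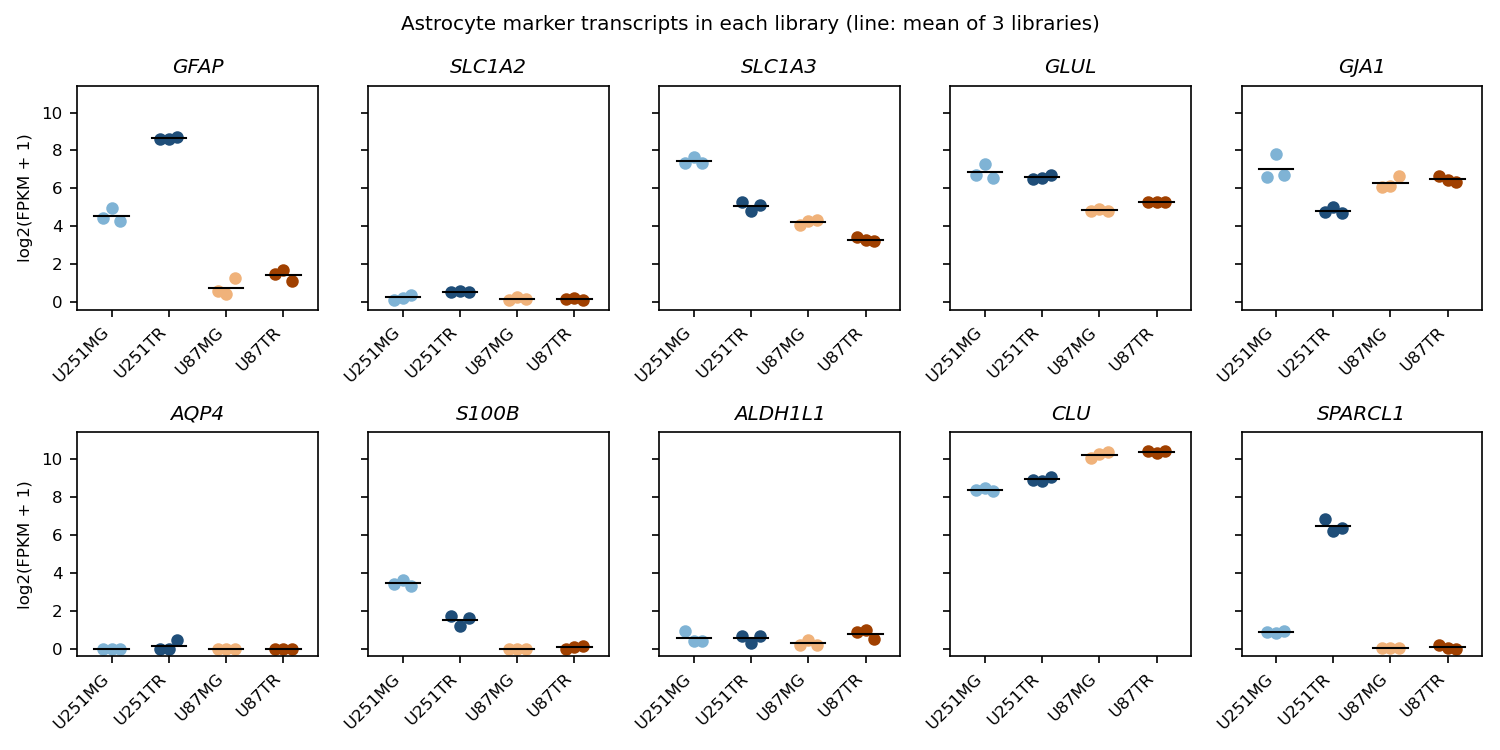
Levels of the 10 astrocyte markers as log2(FPKM + 1), 1 panel per gene on a shared axis, with 1 point per library and a line at the mean of the 3 libraries of U251MG, U251TR, U87MG and U87TR. GFAP and SPARCL1 stand highest in U251TR, CLU is at 318.32 FPKM or above in every library, and SLC1A2, AQP4 and ALDH1L1 stay under 1 FPKM in all 12.

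GFAP, the astrocyte intermediate filament, was measured at 20.29, 29.89 and 18.32 FPKM in the 3 U251MG libraries and at 391.92, 381.35 and 415.37 FPKM in those of U251TR. The means were 22.8 ± 6.19 and 396.2 ± 17.4 FPKM (SD, n = 3 each). Every U251TR library was above every U251MG library, and the gap was many times the spread within either group. The log2 fold change was 4.09 (adjusted p = 3.58e-08, SE 0.23). By level within a library group, GFAP moved from rank 4909 in U251MG to rank 203 in U251TR among all genes of the table.

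In the U87 lines GFAP was near 0. It was listed at 0.51, 0.34 and 1.41 FPKM in U87MG and at 1.78, 2.28 and 1.19 FPKM in U87TR, with means of 0.753 ± 0.575 and 1.75 ± 0.546 FPKM (SD, n = 3 each). The groups overlapped, since the highest U87MG library exceeded the lowest U87TR library. The log2 fold change of 0.68 (SE 0.23) passed at an adjusted p of 0.0438, but the call was lost in 10 of 16 other settings of the fit. In the order of GFAP levels, U251TR stood above U251MG and U251MG above both U87 lines without overlap, and U87TR and U87MG could not be separated by their libraries.

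VIM and NES, filament genes of immature glia, fell in U251TR where GFAP rose. VIM, which encodes vimentin, the filament protein of immature astrocytes and mesenchymal cells, stood at 1297.70, 2473.63 and 1334.05 FPKM in U251MG and at 772.75, 858.77 and 819.66 FPKM in U251TR. All U251TR values lay below all U251MG values, and VIM fell by 0.99 on the log2 scale (adjusted p = 0.000929, SE 0.19). In the U87 lines VIM averaged 4917 ± 418 and 4051 ± 224 FPKM (SD, n = 3 each), a difference that did not pass (adjusted p = 0.318).

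NES encodes nestin, the filament protein of neural stem and progenitor cells. It fell in U251TR, from 195.6 ± 29.4 to 42.6 ± 2.75 FPKM (log2 fold change -2.16, SE 0.12, adjusted p = 2.43e-08). In U87TR it rose, from 7.79 ± 1.09 to 25.5 ± 0.857 FPKM (1.60, SE 0.12, adjusted p = 9.57e-07; SD and n = 3 throughout). No library of one group overlapped with the other in either pair. The changes of NES in the 2 lines differed by 3.76 on the log2 scale (adjusted p = 9.91e-09, SE 0.16).

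Averaged over the 3 ratios within libraries, GFAP amounted to 1.38% of VIM in U251MG and to 48.6% in U251TR. In U87MG and U87TR it amounted to 0.0148% and 0.0435% of VIM. The list of filament genes other than GFAP had 6 tested genes, among them PLEC, which encodes the filament linker plectin. Of these, 1 rose (SYNM) and 3 fell (NES, VIM and the neurofilament gene NEFL) in U251TR, with a median log2 fold change of -0.51. In U87TR, NES rose and none fell, with a median of 0.08. For this and each gene list below, the background over all tested genes is 33.6% higher and 19.6% lower in U251TR and 10.6% higher and 17.2% lower in U87TR, with medians of 0.10 and -0.05.

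**Figure D2:**
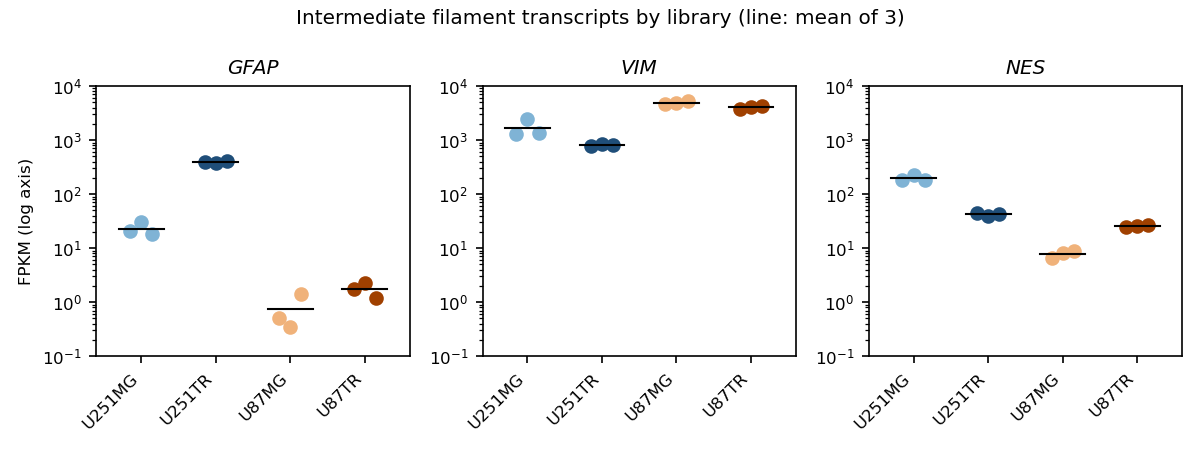
GFAP, VIM and NES in FPKM on a shared logarithmic axis, 1 point per library and a line at the mean of 3, for the 4 lines. In U251TR the GFAP points lie above those of U251MG while the VIM and NES points lie below, and in U87TR the NES points lie above those of U87MG.

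SLC1A3 and SLC1A2 encode the transporters known as GLAST and GLT-1, which clear glutamate from the synapse, and GLUL encodes glutamine synthetase, which turns that glutamate into glutamine. SLC1A3 was measured at 161.26, 202.24 and 162.46 FPKM in U251MG and at 38.25, 27.27 and 34.07 FPKM in U251TR. Each U251TR library was below each U251MG library, and SLC1A3 fell by 2.37 on the log2 scale (adjusted p = 4.36e-08, SE 0.13). In the U87 pair it was measured at 15.47, 18.38 and 18.76 FPKM in the parent and at 9.90, 8.52 and 8.23 FPKM in the resistant line. These groups did not overlap either, and the fall was 0.91 on the log2 scale, with log2 fold change -0.91 (adjusted p = 0.000379, SE 0.13). The 4 groups ranked U251MG, U251TR, U87MG and U87TR, with no overlap between neighbours.

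SLC1A2, the transporter that predominates in the adult forebrain, stayed under 1 FPKM in all 12 libraries, with a highest value of 0.49 FPKM in U251TR. It was therefore outside the main test.

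GLUL stood at 105.18, 155.76 and 90.90 FPKM in U251MG and at 90.74, 93.24 and 104.33 FPKM in U251TR. The groups overlapped, and the log2 fold change of -0.25 (SE 0.15) did not pass (adjusted p = 0.187). It became a call without library 3 of U251MG, at -0.41 (adjusted p = 0.0291), and under median-of-ratios scaling, at -0.39 (adjusted p = 0.0388). In the U87 lines GLUL rose from 26.87, 29.19 and 26.97 FPKM to 38.23, 38.54 and 37.26 FPKM. The U87 groups did not overlap, and the log2 fold change was 0.44 (adjusted p = 0.0463, SE 0.15). That call sat close to the threshold and was lost when any 1 of the 6 U87 libraries was left out. GLUL has processed pseudogene copies, and how reads shared with them were assigned is not given in the sources used here.

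Other glutamate and glutamine genes moved both ways. Of 11 tested, 2 rose and 4 fell in U251TR (median log2 fold change -0.21), and 2 rose and 1 fell in U87TR (median 0.03). SLC1A1, the neuronal-type glutamate transporter, rose in U251TR from 0.617 ± 0.398 to 5.14 ± 0.223 FPKM (1.95, adjusted p = 3.97e-07). In U87TR it fell from 14.9 ± 0.652 to 9.87 ± 0.462 FPKM (-0.55, adjusted p = 0.0134), and the changes in the 2 lines differed by -2.50 (adjusted p = 1.60e-06). SLC38A1, a glutamine carrier, and GPT2, a mitochondrial transaminase, fell in U251TR by 1.48 (adjusted p = 0.000178) and 1.37 (adjusted p = 0.00180) on the log2 scale. In U251MG, library 2 was the lowest for both, at 44.80 FPKM for SLC38A1 and 99.61 FPKM for GPT2, still above every U251TR library. The glutamine carrier SLC1A5 passed in neither line, at -0.41 (adjusted p = 0.185) in U251TR and 0.31 (adjusted p = 0.386) in U87TR, though without library 2 of U251MG the former was -0.79 and a call.

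GJA1 encodes connexin 43, the main gap junction protein of astrocytes. It was measured at 94.38, 222.16 and 103.73 FPKM in U251MG and at 26.12, 30.91 and 24.99 FPKM in U251TR. Library 2 of U251MG was 2.24 times the mean of its other 2 libraries, the widest such gap among markers that averaged at least 1 FPKM in the group. All U251TR values were below all U251MG values, and GJA1 fell by 2.21 on the log2 scale (adjusted p = 3.29e-05, SE 0.27). Leaving out 1 library at a time gave -2.44 to -1.82, the latter without library 2 of U251MG. In the U87 lines GJA1 stood at 65.37, 67.51 and 99.46 FPKM in the parent and at 98.96, 86.15 and 79.95 FPKM in the resistant line. These overlapped, with a log2 fold change of 0.21 (adjusted p = 0.625, SE 0.27). In the order of levels only U251TR was set apart, below U87MG without overlap, while U251MG, U87TR and U87MG overlapped from one to the next.

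Among the other connexins and pannexins, 3 of 5 tested rose and 1 fell in U251TR (median log2 fold change 0.54), and 1 rose and 1 fell in U87TR (median -0.03). PANX2, a pannexin channel gene, rose in U251TR from 1.35 ± 0.0872 to 21.3 ± 0.215 FPKM (3.25, adjusted p = 1.36e-10). GJC1, which encodes connexin 45, rose in U251TR by 0.69 (adjusted p = 0.000557) and fell in U87TR, at -0.62 (adjusted p = 0.00290). GJB2, which encodes connexin 26, was at -0.82 in U251TR (adjusted p = 0.0328, a call lost in 8 of 16 other settings) and rose in U87TR from 1.53 ± 1.19 to 14.1 ± 0.129 FPKM (2.68, adjusted p = 3.10e-05). The GJB2 changes differed between lines by 3.50 (adjusted p = 3.20e-05). GJB6, the other astrocyte connexin, was not analysed here.

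AQP4, the water channel of the astrocyte end-foot, was listed at 0 in 11 of the 12 libraries and at 0.36 FPKM in library 3 of U251TR. A defining end-foot transcript was thus near 0 in all 4 lines, and KCNJ10, the inward rectifier potassium channel of end-feet, was likewise too low to be tested. AQP1 was not analysed here. Other end-foot genes were present: of 9 tested, 5 rose and 2 fell in U251TR (median log2 fold change 0.34), where 33.6% and 19.6% of all tested genes did, and 1 rose and 3 fell in U87TR (median -0.17), where 10.6% and 17.2% did. AGRN, which encodes the basement membrane proteoglycan agrin, rose in both, by 0.88 (adjusted p = 5.25e-06) and 0.98 (adjusted p = 5.86e-06). MLC1, an end-foot membrane protein gene, rose in U251TR from 13.4 ± 1.08 to 36.3 ± 3.87 FPKM (1.37, adjusted p = 4.59e-07) and was under 0.1 FPKM in the U87 libraries. MEGF10 and DTNA, of the same list, fell in U251TR at -1.63 (adjusted p = 0.000146) and -0.54 (adjusted p = 0.00218). MEGF10 was called lower in U87TR too, at -0.75 (adjusted p = 0.0408). AQP9, a channel for water and glycerol, fell in U87TR from 16.1 ± 1.68 to 6.55 ± 0.587 FPKM (-1.18, adjusted p = 4.72e-06).

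S100B encodes a calcium-binding protein that astrocytes also secrete. It was measured at 9.64, 11.24 and 8.72 FPKM in U251MG and at 2.31, 1.30 and 2.07 FPKM in U251TR. The groups were far apart, and S100B fell by 1.92 on the log2 scale (adjusted p = 3.46e-07, SE 0.14). All 3 U87MG libraries had it at 0 and those of U87TR at 0, 0.05 and 0.10 FPKM, so no fold is given for the U87 pair (adjusted p = 0.766).

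ALDH1L1, a folate enzyme used as a broad astrocyte marker, stayed under 1 FPKM in all 12 libraries, from 0.13 FPKM in a U87MG library to 0.96 FPKM in a U87TR library, and was outside the main test. Other enzymes of folate one-carbon metabolism were well measured. Of 15 tested, 3 rose and 3 fell in U251TR (median log2 fold change 0.05), and 1 rose and 1 fell in U87TR (median 0.05). MTHFD2L, a mitochondrial enzyme of this pathway, fell in U251TR from 29.8 ± 2.05 to 9.53 ± 0.391 FPKM (-1.55, adjusted p = 8.19e-08). FPGS, which adds glutamate residues to folates, fell in U87TR by 0.41 (adjusted p = 0.00551). ALDH1L2, the mitochondrial relative of ALDH1L1, passed in neither line, at -0.08 (adjusted p = 0.791) and 0.53 (adjusted p = 0.0905), the latter a call without library 3 of U87MG (0.84).

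CLU encodes clusterin, an extracellular chaperone, and was the most abundant marker in every line. It was measured at 327.50, 358.59 and 318.32 FPKM in U251MG and at 477.07, 464.14 and 537.87 FPKM in U251TR. The groups did not overlap, and CLU rose by 0.56 on the log2 scale (adjusted p = 0.000318, SE 0.09), which is under 2-fold. U87MG had 1056.31, 1218.42 and 1337.68 FPKM and U87TR had 1363.44, 1285.44 and 1370.57 FPKM. These overlapped, at a log2 fold change of 0.16 (adjusted p = 0.230, SE 0.09).

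SPARCL1 encodes hevin, a secreted protein that promotes the formation of excitatory synapses. It stood at 0.85, 0.79 and 0.88 FPKM in U251MG and at 113.01, 73.47 and 81.53 FPKM in U251TR. Hevin transcripts thus went from under 1 FPKM to levels that overlapped those of GLUL in the same line, with a log2 fold change of 5.59 (adjusted p = 5.11e-11, SE 0.14). In the U87 lines it was listed at 0.01 FPKM in each parental library and at 0.12, 0.01 and 0.00 FPKM in the resistant ones, and no fold is given (adjusted p = 0.861). SPARC, the related matricellular protein gene, was abundant in all 4 lines. Averaged in the same way over libraries, SPARCL1 amounted to 0.146% of SPARC in U251MG and to 10.4% in U251TR.

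SPARC itself rose in both, by 0.55 in U251TR (adjusted p = 0.00185) and by 0.87 in U87TR (adjusted p = 0.000190). Of 10 tested genes of the SPARC family and of secreted synaptogenic proteins, 5 rose and 3 fell in U251TR (median log2 fold change 0.26), and 1 rose and 3 fell in U87TR (median -0.02). THBS1, which encodes the synaptogenic thrombospondin 1, rose in U251TR from 3.55 ± 1.22 to 12.7 ± 1.89 FPKM (1.61, adjusted p = 9.06e-05). GPC4, which encodes the glypican that recruits glutamate receptors, fell there from 102.6 ± 25.3 to 29.4 ± 0.537 FPKM (-1.74, adjusted p = 1.61e-06) and was listed at 0 in all U87 libraries. APOE, the lipid carrier of astrocytes, averaged under 1 FPKM in all 4 lines. It fell in U251TR at -0.53 (adjusted p = 0.00458) and did not pass in U87TR at 0.12 (adjusted p = 0.542).

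**Figure D3:**
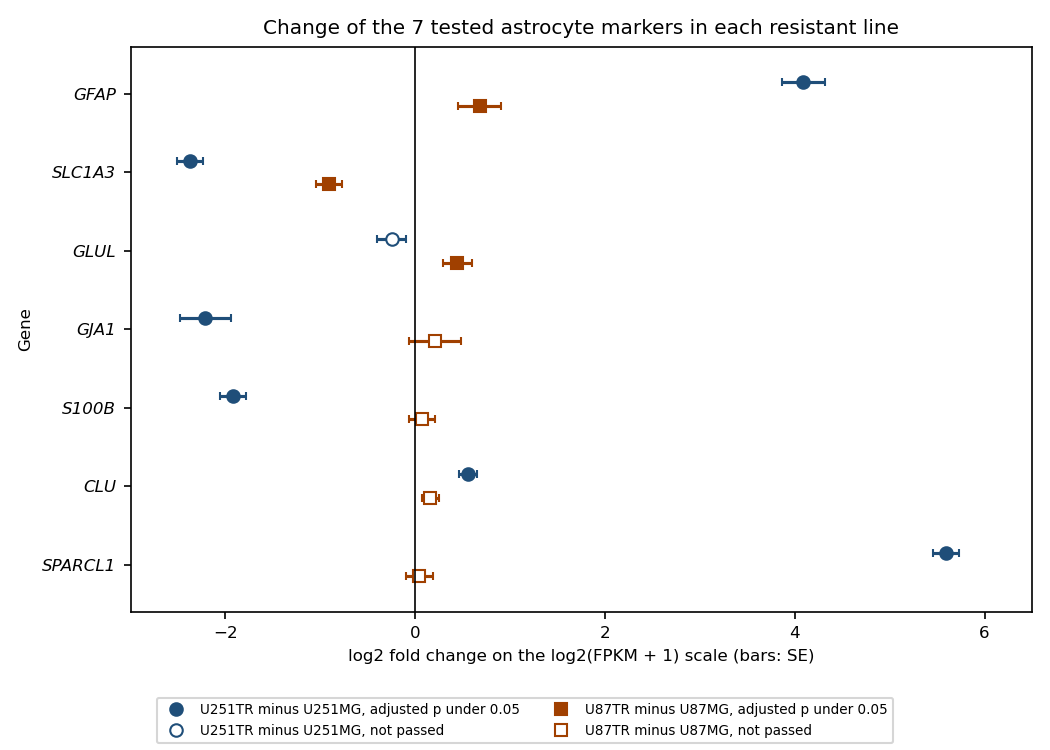
Log2 fold change on the log2(FPKM + 1) scale with its standard error for each of the 7 tested markers, in U251TR against U251MG and in U87TR against U87MG. In U251TR the points run from 5.59 for SPARCL1 to -2.37 for SLC1A3, and in U87TR all lie between -0.91 and 0.68.

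The promoters of markers that moved are shown to let their letters be read beside the values. Of the 10 markers, 6 were matched in the table of RefSeq promoter windows used here (GRCh38.p14). The windows printed are the 250 bases before the outermost annotated start of SLC1A3, which fell in both resistant lines (chr5:36596338-36596587, plus strand), of GJA1, which fell in U251TR (chr6:121435396-121435645, plus strand), and of SPARCL1, which rose most in U251TR (chr4:87529377-87529626, minus strand), 5′ to 3′ on the gene's strand. Capitals mark matches to TTCNNNGAA, the palindrome bound by STAT factors, in SLC1A3, to TGANTCA, the AP-1 site, in GJA1, and to TTGGC on either strand, the half-site of NFI factors, in SPARCL1.
SLC1A3: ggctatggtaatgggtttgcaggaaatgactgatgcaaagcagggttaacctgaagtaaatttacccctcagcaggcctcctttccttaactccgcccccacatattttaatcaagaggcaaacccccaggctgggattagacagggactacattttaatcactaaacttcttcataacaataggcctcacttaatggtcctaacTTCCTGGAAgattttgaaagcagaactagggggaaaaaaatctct
GJA1: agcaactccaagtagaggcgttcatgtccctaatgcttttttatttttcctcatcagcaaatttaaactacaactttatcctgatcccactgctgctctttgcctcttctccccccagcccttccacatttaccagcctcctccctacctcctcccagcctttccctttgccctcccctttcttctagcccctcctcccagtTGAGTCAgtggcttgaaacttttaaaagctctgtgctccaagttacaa
SPARCL1: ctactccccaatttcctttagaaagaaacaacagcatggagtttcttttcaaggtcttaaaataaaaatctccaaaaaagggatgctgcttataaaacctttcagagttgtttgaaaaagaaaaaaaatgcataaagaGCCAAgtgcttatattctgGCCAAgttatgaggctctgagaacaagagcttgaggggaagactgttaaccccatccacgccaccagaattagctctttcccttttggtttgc

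These motifs were chosen after the expression values had been seen, and both strands were searched. The STAT match in SLC1A3 starts 45 bases before the annotated start, the AP-1 match in GJA1 48 bases before it, and the NFI half-sites in SPARCL1 112 and 93 bases before it. Among all 35116 promoter windows of that length, 6.57% hold the STAT letters, 6.57% the AP-1 letters and 40.8% an NFI half-site. The first SPARCL1 half-site and the GJA1 AP-1 match each overlap a match to CANNTG, the E-box, which 61.8% of windows hold and which is not capitalised. A window before another annotated start of SLC1A3, not printed here, holds AP-1 matches 128 and 26 bases before that start. A further SLC1A3 window holds an NFI half-site 136 bases before its start. The window before the outermost GLUL start holds 1 NFI half-site, 67 bases before that start. Another GLUL window holds an NFI half-site 112 bases before its start, and an ALDH1L1 window 166 bases before its start. The STAT letters also occur in an AQP4 window, 195 bases before its start. A match describes letters in the window and was not tested for binding.

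The change with resistance differed between the U251 and U87 backgrounds for all 7 tested markers, by the interaction term of the same fit. The number block of the U87TR libraries enters this term and cannot be told apart from resistance in it. Counted as the U87 change minus the U251 change, 4 were called higher and 3 lower, against 15.4% and 32.1% of all tested genes. SPARCL1 was at -5.55 (adjusted p = 2.18e-09, SE 0.20) and GFAP at -3.41 (adjusted p = 5.67e-06, SE 0.32), the 2 markers with the largest rises in U251TR. GJA1 was at 2.42 (adjusted p = 0.000329, SE 0.38), S100B at 1.99 (adjusted p = 7.80e-06, SE 0.20) and SLC1A3 at 1.46 (adjusted p = 6.75e-05, SE 0.19). S100B and SPARCL1 were near 0 in both U87 lines, so their differences restate the U251 change. SLC1A3 fell in both lines, and fell further in U251TR.

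The smallest differences were those of GLUL at 0.69 (adjusted p = 0.0187, SE 0.21) and of CLU at -0.40 (adjusted p = 0.0260, SE 0.13). That of CLU was lost in 8 of 21 other settings, among them median-of-ratios scaling, which gave -0.21 (adjusted p = 0.244).

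The parental lines already differed in 7 of 7 tested markers, in a comparison that shares its libraries with those above. U87MG was higher for CLU and lower for the other 6, where 32.2% of all tested genes were called higher and 40.1% lower. CLU was higher by 1.84 (adjusted p = 3.27e-09, SE 0.09). The log2 fold change was -3.78 for GFAP (adjusted p = 1.70e-08, SE 0.23), -3.25 for SLC1A3 (adjusted p = 5.37e-10, SE 0.13) and -2.01 for GLUL (adjusted p = 1.39e-07, SE 0.15). S100B was listed at 0 in U87MG and SPARCL1 was under 1 FPKM in both lines. S100B passed the filter on low values through the U251 libraries alone, which left it little room for another direction. SPARCL1 passed through U251TR alone, a line outside this comparison. Both are counted among the 6 and in the median below, which are given as a description. GJA1 was lower in U87MG by a log2 value of -0.76 (adjusted p = 0.0238, SE 0.27), and without library 2 of U251MG the value was -0.38 (adjusted p = 0.0601). The call was lost in 6 of 16 other settings, also without library 1 or library 2 of U87MG. The median over the 7 markers was -2.01, beside -0.09 over all tested genes.

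The genes whose profile over the 12 libraries lay nearest to that of GFAP were ranked by the root mean square difference of centred log2 values among 9167 genes. TINAGL1, which encodes a secreted matrix protein, was nearest at 0.55, against a spread of 3.12 for the GFAP profile itself. Its means were 6.91, 112.0, 0.04 and 0.07 FPKM in U251MG, U251TR, U87MG and U87TR. It was followed by SEMA3F, a secreted semaphorin gene, at 0.95, TMEM173, which encodes the STING adaptor, at 1.01, CX3CL1, which encodes fractalkine, at 1.03, and FBLN1, which encodes fibulin 1, at 1.05. CX3CL1 had means of 1.94, 51.9, 0.00667 and 0.163 FPKM. SPARCL1 was the nearest of the other markers ranked, at rank 8 with 1.13, whereas GJA1 and CLU were at ranks 8488 and 8573. GLUL was at rank 711 and SLC1A3 at rank 2167. S100B, SLC1A2, AQP4 and ALDH1L1 were too low to enter this ranking. With 4 lines behind 12 libraries, the points share a line in groups of 3, and no p is given.

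Regulators of astrocyte fate were measured beside the markers. Of 11 tested, 5 rose and 1 fell in U251TR (median log2 fold change 0.05), and 4 rose and 1 fell in U87TR (median 0.01). Over all tested genes the shares were 33.6% and 19.6% in U251TR and 10.6% and 17.2% in U87TR. NFIA, a factor that starts gliogenesis, rose in U251TR from 0.28, 0.49 and 0.34 FPKM to 4.35, 4.04 and 4.49 FPKM (1.95, adjusted p = 5.63e-08). In U87TR it was at -0.17 (adjusted p = 0.307), and the difference between the lines was -2.12 (adjusted p = 1.01e-06). Outside U251TR only library 3 of U87MG reached 1 FPKM, at 1.08. NFIA thus passed the filter on low values through U251TR and had to differ somewhere in the design. ID1, an inhibitor of basic helix-loop-helix factors induced by BMP signalling, rose in U251TR from 12.8 ± 2.60 to 36.2 ± 3.46 FPKM (1.45, adjusted p = 1.01e-06). The related ID3 moved the other way there, at -0.56 (adjusted p = 0.0247), and rose in U87TR by 0.68 (adjusted p = 0.0179), with a difference of 1.24 (adjusted p = 0.00240). The ID3 call was lost in 6 of 16 other settings in U251TR and in 4 of 16 in U87TR, leaving out single libraries among them. LHX2, a LIM homeobox factor, rose in U251TR by 1.44 (adjusted p = 2.37e-06), and NFIX, another NFI factor, fell in U87TR at -0.90 (adjusted p = 9.03e-05). SOX9 did not pass in U251TR (-0.23, adjusted p = 0.173) and was called in U87TR (0.47, adjusted p = 0.0230), a call lost in 7 of 16 other settings.

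The gp130 cytokine pathway, which signals through JAK kinases and STAT3, had 18 tested genes. In U251TR 8 rose and 4 fell (median log2 fold change 0.20), and in U87TR 1 rose and 3 fell (median -0.11). Beside these counts stand 33.6% higher and 19.6% lower of all tested genes in U251TR, and 10.6% and 17.2% in U87TR. IL6 rose in U251TR from 1.93, 1.21 and 2.20 FPKM to 62.42, 50.78 and 60.87 FPKM (4.42, SE 0.36, adjusted p = 1.09e-06). In U87MG it varied from 8.78 to 36.56 FPKM and did not pass in U87TR (0.67, adjusted p = 0.193), except without library 3 of U87MG (1.16). JAK2 rose in both, by 2.54 (adjusted p = 7.78e-09) in U251TR and by 0.57 (adjusted p = 0.00366) in U87TR. STAT3 was at 0.37 in U251TR (adjusted p = 0.0298, lost in 9 of 16 other settings) and at 0.35 in U87TR (adjusted p = 0.0637). SOCS3, the feedback inhibitor, rose in U251TR by 0.57 (adjusted p = 0.0106) and was at -0.19 in U87TR (adjusted p = 0.438).

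LIF, a ligand of the same family, fell in both lines, at -0.96 (adjusted p = 0.000238) in U251TR and -1.86 (adjusted p = 2.94e-06) in U87TR. IL11 was at 353.73, 18.42 and 249.24 FPKM in U251MG, where library 2 stood near the 14.68 to 20.53 FPKM of U251TR. The log2 fold change of IL11 was -2.72 (adjusted p = 0.0158, SE 0.82). It was -4.04 (adjusted p = 7.41e-09) without that library, -1.94 (adjusted p = 0.0751) without library 1 and -2.19 (adjusted p = 0.0778) without library 3 of U251MG, so the call rested on those 2. IL6ST, which encodes gp130 itself, was at 0.01 (adjusted p = 0.992) in U251TR, a sign that turned under median-of-ratios scaling (-0.13), and -0.33 (adjusted p = 0.235) in U87TR.

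Of 21 tested genes known from reactive astrocytes, 15 rose and 1 fell in U251TR (median log2 fold change 0.99), and 8 rose and 2 fell in U87TR (median 0.14). All tested genes had 33.6% higher and 19.6% lower with a median of 0.10 in U251TR, and 10.6% and 17.2% with a median of -0.05 in U87TR. CP, which encodes ceruloplasmin, rose in U251TR from 0.42 ± 0.19 to 30.2 ± 7.10 FPKM (4.44, adjusted p = 1.24e-09). C3, the complement component, rose there from 2.22, 4.05 and 1.80 to 72.72, 59.43 and 69.53 FPKM (4.25, adjusted p = 5.58e-08). TNC, which encodes the matrix protein tenascin C, fell from 1002 ± 20.6 to 192.6 ± 10.0 FPKM (-2.37, adjusted p = 4.08e-09). In U87TR CXCL10, a chemokine gene, rose by 2.92 (adjusted p = 4.74e-08) and CD44, the hyaluronan receptor gene, fell at -1.04 (adjusted p = 4.76e-06). CXCL10 rose in U251TR too, and by more, from a mean of 0.09 to 19.1 FPKM (adjusted p = 7.70e-10). The CXCL10 changes differed between lines by -1.28 (adjusted p = 0.000354). Its U87TR value ran from 1.25 to 5.65 over 16 other settings of the fit, and the call held in each. CP passed the filter on low values through U251TR alone, and CXCL10 through the resistant lines alone. Both therefore had to differ somewhere in the design, and both are counted among the 15 that rose in U251TR.

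A second set of astrocyte markers gave no common direction. Of 14 tested, 5 rose and 5 fell in U251TR (median log2 fold change -0.04), and 2 rose and 4 fell in U87TR (median -0.01). FGFR3 and TTYH1, a growth factor receptor and a channel protein gene of astrocytes, fell in U251TR at -2.76 (adjusted p = 3.54e-08) and -2.61 (adjusted p = 2.33e-08). NDRG2, among the 5 that rose there, was at 0.60 (adjusted p = 0.0291). ALDOC, the brain aldolase, was at 1.02 in U87TR (adjusted p = 0.0345), a call lost in 9 of 16 other settings. NDRG2 was among the 4 that fell in U87TR, at -0.63 (adjusted p = 0.0422), and was under 1 FPKM in the U87 libraries.

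**Figure D4:**
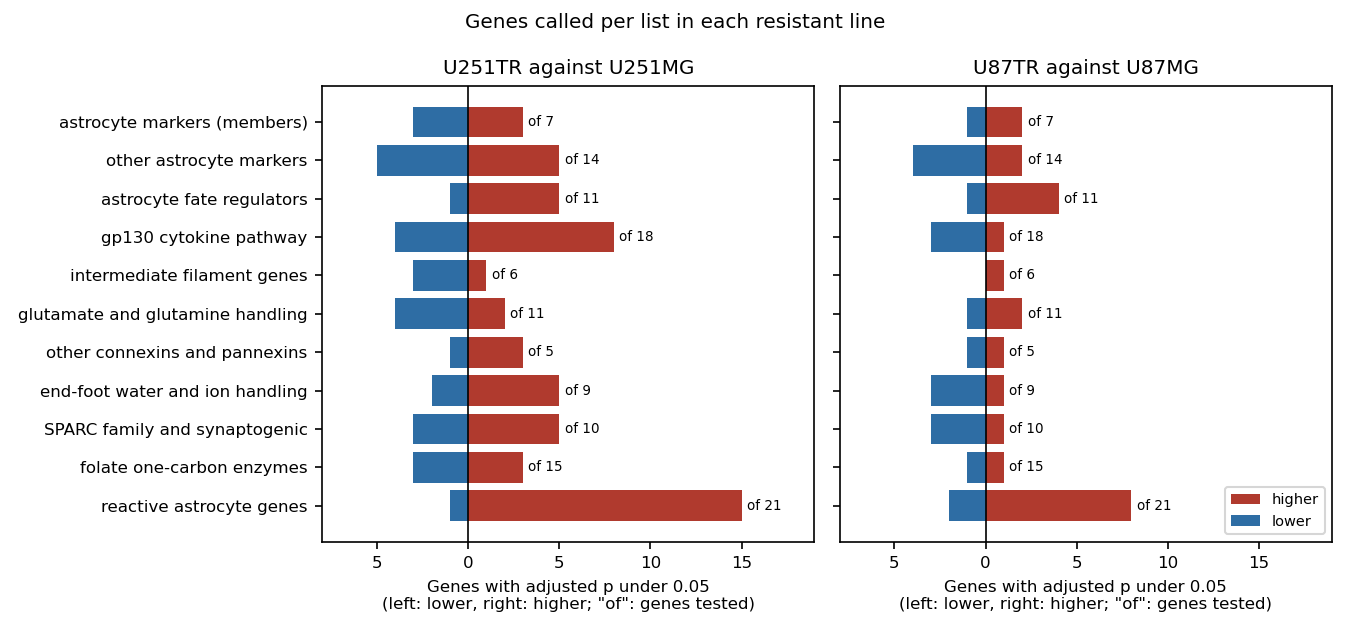
Numbers of tested genes called higher (to the right) and lower (to the left) at an adjusted p under 0.05 in each gene list, for U251TR against U251MG and for U87TR against U87MG, with the number tested beside each bar. The reactive astrocyte list has 15 of 21 higher and 1 lower in U251TR and 8 higher and 2 lower in U87TR, while the second set of astrocyte markers is split 5 to 5 in U251TR.

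Markers of other cell types were read in the same libraries. The libraries come from cultured glioblastoma lines, so these genes are read as transcripts of those cells, not as amounts of other cell types. Bulk RNA cannot tell a change in the share of cells that express a gene from a change in RNA per cell. The summed level of the neuron list was 14.45 to 22.02 FPKM in U251MG and 28.86 to 38.16 FPKM in U251TR, and 1 of 6 tested genes rose there (MAP2, 2.38, adjusted p = 5.80e-08) and 1 fell. Oligodendrocyte precursor markers summed to 50.66 to 113.07 FPKM in U251MG and 12.65 to 13.58 FPKM in U251TR, where 2 of 4 fell, PDGFRA at -2.70 (adjusted p = 1.03e-05). Microglia and leukocyte markers summed to 0.48 to 0.66 FPKM in U251MG and 0.33 to 0.62 FPKM in U251TR, where 1 of 2 tested fell (CSF1R, -0.37, adjusted p = 0.0340). They summed to 12.68 to 16.68 FPKM in U87MG and 18.19 to 21.33 FPKM in U87TR, where 1 of 2 rose (TMEM119, 1.41, adjusted p = 3.55e-05). The 1 tested endothelial marker, CDH5, rose in U251TR from 6.69 ± 1.35 to 11.2 ± 0.624 FPKM (0.68, adjusted p = 0.000496) and was under 1 FPKM in the U87 libraries. Of 8 tested mesenchymal markers, 1 rose and 2 fell in U251TR, and 4 rose and 3 fell in U87TR. The part of these changes in those of the astrocyte markers was not tested.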

How the data were processed

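Expression was measured by paired-end RNA sequencing in 12 libraries of 4 lines, 3 per line, grouped by their labels. The authors deposited 1 table of FPKM values with 2 decimals. That unit was inferred from the values, whose column totals run from 695282 to 785754 and so differ between libraries. Per the submitters' processing notes STAR 2.5.2b and RSEM 1.2.31 were used. Those notes name hg19 and the design text hg38, and the annotation and the strand setting are not given in the sources used here, so no gene coordinates of the files are printed.

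Of 31681 symbol rows, 27 that a spreadsheet had turned into dates were left out. The 15449 genes that reached 1 FPKM in 3 or more libraries entered a group-means model on log2(FPKM + 1) with limma 3.58.1 (trended, robust) in R 4.3.3, with Benjamini-Hochberg adjustment. The code was tested on simulated data. FPKM give neither depth nor counting error. Same-numbered libraries had correlations of deviations from -0.058 to 0.13, so the numbers were not taken to pair them. The closing section gives the effect of other pseudocounts, filters, scalings, a replicate block and leaving out each library.

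The markers and the gene lists were chosen with earlier results of these data known. Besides the 10 markers, the text names a fixed set of related genes, up to 2 of the largest rises and falls per list at 5 FPKM or more, and the 5 genes nearest to GFAP. SYNM, PLEC, CSF1R, TMEM119 and CDH5 were named after their values were seen. Like NDRG2, MEGF10 and DTNA, these are not in the counts of other settings given for named genes. Some genes that this rule would name are not reported here.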

Additional observations from a re-analysis of the deposited data

Results flagged for a closer look

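The change with resistance differed between the U251 and U87 lines for all 7 tested astrocyte markers, by limma's interaction term with Benjamini-Hochberg adjustment over all tested genes. As the U87 change minus the U251 change on the log2(FPKM + 1) scale, the values were -5.55 for SPARCL1, -3.41 for GFAP and -0.40 for CLU, whose rises were in U251TR or larger there. They were 2.42 for GJA1, 1.99 for S100B, 1.46 for SLC1A3 and 0.69 for GLUL. GJA1 and S100B fell in U251TR and were not called in U87TR, SLC1A3 fell in both and by more in U251TR, and GLUL was called in U87TR only, as a rise. Of all tested genes, 15.4% were called higher and 32.1% lower in this contrast. S100B and SPARCL1 were near 0 in all 6 U87 libraries. The number block of the U87TR libraries cannot be told apart from resistance in this contrast.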

How the results depend on the processing

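With no read counts in the table, the depth limits what can be said of SLC1A2, AQP4, ALDH1L1, of GFAP in the U87 lines, and of S100B and SPARCL1 there. For the 7 tested markers over 4 comparisons, 442 of 483 alternative values kept the direction and the call, 38 lost the call, 2 gained it and 1 changed sign. That one is SPARCL1 in U87TR, which ran from -0.0072 to 0.075 when 1 library was left out. For the other named genes, 1077 of 1158 kept both, 67 lost the call, 9 gained it and 5 changed sign, all of them IL6ST in U251TR: -0.13 under median-of-ratios scaling, -0.026 under quantile normalization, and -0.19 to 0.12 with 1 library left out. The 3 markers called in U87TR became 1 with a pseudocount of 5 FPKM, 1 with no filter on low values and 1 to 2 with 1 library left out. They became 0 when limma's calls had also to reach 2-fold, while all 3 had an unadjusted p under 0.05. The cause was not tested. The 6 calls in U251TR held in direction under every scaling tried, and without library 2 of U251MG there were still 6. With the replicate block, 6 markers were called in U251TR, 2 in U87TR, 7 in the difference and 7 between the parental lines. Among called genes of the whole table, the share called higher in U251TR was 63.2% as deposited, 50.9% under median-of-ratios scaling, 72.1% as TPM and 49.3% under quantile normalization. In U87TR it was 38.1%, 45.2%, 46.2% and 48.8%, and in the difference 32.4%, 46.0%, 27.9% and 48.6%. The median log2 fold change of all genes moved from 0.10 to 0.00, 0.20 and -0.01 in U251TR and from -0.17 to -0.02, -0.24 and 0.01 in the difference.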

Other observations

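The 3 markers that stayed under 1 FPKM in every library can be fitted only without the filter on low values, over 31654 genes. SLC1A2, the GLT-1 transporter gene, was listed at 0.09, 0.18 and 0.30 FPKM in U251MG and at 0.42, 0.49 and 0.47 FPKM in U251TR. These did not overlap, at a log2 fold change of 0.30 (adjusted p = 0.0156 with limma, SE 0.08). ALDH1L1 was listed at 0.15, 0.37 and 0.13 FPKM in U87MG and at 0.81, 0.96 and 0.42 FPKM in U87TR, also without overlap, at 0.50 (SE 0.17, adjusted p = 0.0939). At such values the fold depends on the pseudocount.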
